A study of Homo sapiens with 4 samples.

Results

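Glycolysis converts glucose to pyruvate in the cytosol through a fixed order of enzymes, and lactate dehydrogenase then reduces pyruvate to lactate. The mRNAs of these enzymes are abundant in most proliferating cells, and several of the proteins have been found on RNA themselves. PDCD4 (programmed cell death 4) is an RNA-binding tumour suppressor best known as an inhibitor of the helicase eIF4A in translation initiation, and it also resides in the nucleus. The 10 genes described here encode enzymes of this route, namely HK2, GPI, PFKP, ALDOA, TPI1, GAPDH, PGK1, ENO1, PKM and LDHA. A gene was taken wherever its exact symbol stood in the gene label of a listed crosslink site, and all 10 were found, among 14416 genes with a site in either list.

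The sites come from iCLIP, in which UV light links protein to RNA in living cells and the ends of the cDNAs mark the nucleotides of contact. Wild-type MCF10A cells, an established line of untransformed breast epithelium grown with horse serum, epidermal growth factor, insulin, hydrocortisone and cholera toxin, were irradiated, and lysates were precipitated with an antibody against PDCD4 or with control IgG. Each arm had 2 libraries, but their sites were deposited as 1 pooled list per arm, so that these lists give no spread between replicates, no test between the arms was made here, and every interval below covers counting error only. A score is the number of cDNAs ending at a 1-nt site. The lists are named as peaks, so a region without a listed site may still have held cDNAs. All counts, shares and limits below refer to listed sites only.

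PDCD4 sites in these genes numbered 656, with 1899 cDNAs out of 409308 in the whole list of 158922 sites, or 46.4 cDNAs per 10000. The IgG list held 217 such sites and 615 cDNAs out of 276139 over 111361 sites, or 22.3 per 10000. Of the breast epithelial markers examined, 12 of 12 had a PDCD4 site, against 0 of 9 markers of blood and endothelium and 0 of 6 of liver and neurons. An IgG site was listed for 11 of 12, 1 of 9 and 1 of 6 of these markers. The methods describe a subtraction of IgG sites from the PDCD4 replicates before peak calling, which would bear on every comparison of the lists. However, ENO1 had 4 positions listed in both, LDHA 3, GAPDH and PKM 2 each and GPI 1, so that a full removal was not borne out and its extent is unknown. RNA abundance was not measured in either list, so that more binding and more RNA cannot be told apart.

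Nucleotides at which high scores lay are printed first, to give the bases at sites listed for several of the enzymes. Every sequence is the RNA strand written as DNA from 5′ to 3′, 29 nt long, read from the GRCh38 genome, with the crosslinked nucleotide and the 2 after it in capitals.
GAPDH exon 8, chr12:6537662-6537690, plus strand, score 15: gctctccagaacatCATccctgcctctac
GAPDH intron 7 and exon 8, chr12:6537572-6537600, plus strand, score 12: ctccttttgcagacCACagtccatgccat
GAPDH exon 6, chr12:6537116-6537144, plus strand, score 9: ggagccaaaagggtCATcatctctgcccc
ENO1 exon 10, chr1:8863296-8863324, minus strand, score 12: aatggttggggcgtCATggtgtctcatcg
PFKP exon 17, chr10:3129855-3129883, plus strand, score 6: aagcggcgcgtgttCATcatcgagaccat
PKM 3′UTR, chr15:72199219-72199247, minus strand, score 9: ctgggctgttgttcCATtgaagccgactc
PKM2 exon, chr15:72202523-72202551, minus strand, score 7: attaccagcgacccCACagaagccaccgc
PGK1 coding sequence, chrX:78113781-78113809, plus strand, score 7: gacaatggagccaaGTCggtagtccttat
GPI intron 9, chr19:34389831-34389859, plus strand, score 13: atgattatttgatgTACgtctctctccca
LDHA exon 8 in the PDCD4 list, chr11:18407150-18407178, plus strand, score 6: agtgttccttgcatTTTgggacagaatgg
LDHA exon 8 in the IgG list, chr11:18407149-18407177, plus strand, score 7: tagtgttccttgcaTTTtgggacagaatg

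The window that begins in GAPDH intron 7 has its site at base 3 of exon 8, and no site of either list lay in that intron. Its intronic bases are those of the genome, so the window does not show whether the RNA was spliced. The GAPDH windows with scores of 12 and 9 and both LDHA windows lie at sites of repeated sequence. Their next 30 nt occur elsewhere in the genome, so these reads cannot be assigned to the enzyme gene alone. In 5 of the 11 printed windows the capitals read CAT. Since CAT was looked for after these windows had been seen, its frequency is given as a description, on the RNA strand only and with the C as the crosslinked base. Among the 402 exonic PDCD4 sites of the enzymes, 44 stood at the C of a CAT, or 10.9% (95% Wilson interval 8.26 to 14.4), against 1.77% of all 27792 positions of their mRNAs. The share was 6.04% (11 of 182) at scores of 1 or 2, 11.8% (22 of 187) at scores of 3 to 5 and 33.3% (11 of 33) above 5, with an interval of 19.8 to 50.4 for the last. The last 11 sites lay in ALDOA, ENO1, GAPDH, PFKP and PKM. The IgG list held it too: 11 of 108 exonic IgG sites of the same genes, or 10.2% (5.78 to 17.3), stood at a CAT. Exonic sites of other protein-coding genes had it in 7.20% of the PDCD4 list and 6.47% of the IgG list, and in 12% (166 of 1383, 10.4 to 13.8) of PDCD4 sites above 5. Leaving out GAPDH gave 10.6% and leaving out sites of repeated sequence 10.2%. A G directly after the site was rare in both lists, at 3.98% of exonic PDCD4 sites and 5.56% of exonic IgG sites of the enzymes, where 25.9% of the mRNA positions are G.

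The amounts in the 2 lists were compared first over all sites of a gene, to ask which enzyme RNAs were recovered more with PDCD4 than with IgG. The log2 ratio is that of cDNAs per 10000 of each list with a pseudocount of 1 cDNA. It exceeded 1, a 2-fold excess in the PDCD4 list, for 6 of the 10 enzymes (GPI, GAPDH, ENO1, PKM, ALDOA and TPI1), whereas 16.4% of the 7305 genes with at least 20 cDNAs over both lists passed the same limit. None of the 10 lay below -1, where 16.1% of genes lay. The median was 1.17 over the enzymes and -0.10 over all genes tested. Their summed cDNAs had a log2 ratio of 1.06 (0.93 to 1.19), or 0.95 without GPI and 0.90 without GAPDH.

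HK2, the hexokinase that traps glucose as glucose 6-phosphate, held 52 PDCD4 and 35 IgG cDNAs, with a log2 ratio of -0.01 (-0.62 to 0.60). GPI, which isomerises glucose 6-phosphate to fructose 6-phosphate, held the most PDCD4 cDNAs of the 10, with 435 against 106 in the IgG list and a ratio of 1.46 (1.15 to 1.76). PFKP, the platelet isoform of phosphofructokinase and thus of the committed step, held 171 against 130, at -0.17 (-0.50 to 0.15). Of these 3 enzymes, therefore, only GPI passed the 2-fold limit.

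ALDOA, the aldolase that splits fructose 1,6-bisphosphate, held 105 cDNAs against 33, at 1.07 (0.52 to 1.63). TPI1, which interconverts the triose phosphates, was the least covered, with 38 against 10, at 1.26 (0.29 to 2.22). GAPDH, which oxidises glyceraldehyde 3-phosphate, had the highest ratio of the 10, with 313 cDNAs against 43, at 2.27 (1.81 to 2.72). The ratio of TPI1 turned to -0.11 (-1.42 to 1.21) when sites of repeated sequence were left out, that is, sites whose next 30 nt occur elsewhere in the genome, and that of GAPDH was then 1.67 (1.10 to 2.23). Such sites were 48 of 90 PDCD4 sites in GAPDH and 9 of 13 in TPI1, compared with 9.93% in the whole list, and reads of the many processed copies of these genes cannot be told from reads of the parent. No site was labelled with a GAPDH or TPI1 pseudogene. Among pseudogenes of the enzymes only 1 of LDHA was labelled, at 1 PDCD4 site with 2 cDNAs.

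PGK1, which makes the first ATP of the pathway, held 76 cDNAs against 51, equal per 10000 (0.00, -0.51 to 0.51). ENO1, the enolase that forms phosphoenolpyruvate, held 230 against 60, at 1.35 (0.95 to 1.76). PKM, the pyruvate kinase that yields pyruvate and ATP, held 338 against 70, at 1.69 (1.32 to 2.06). LDHA, which reduces pyruvate to lactate, held 141 against 77, at 0.30 (-0.10 to 0.70). In the lower part of the route, ENO1 and PKM thus stood above the 2-fold limit, and PGK1 and LDHA did not.

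**Figure D1:**
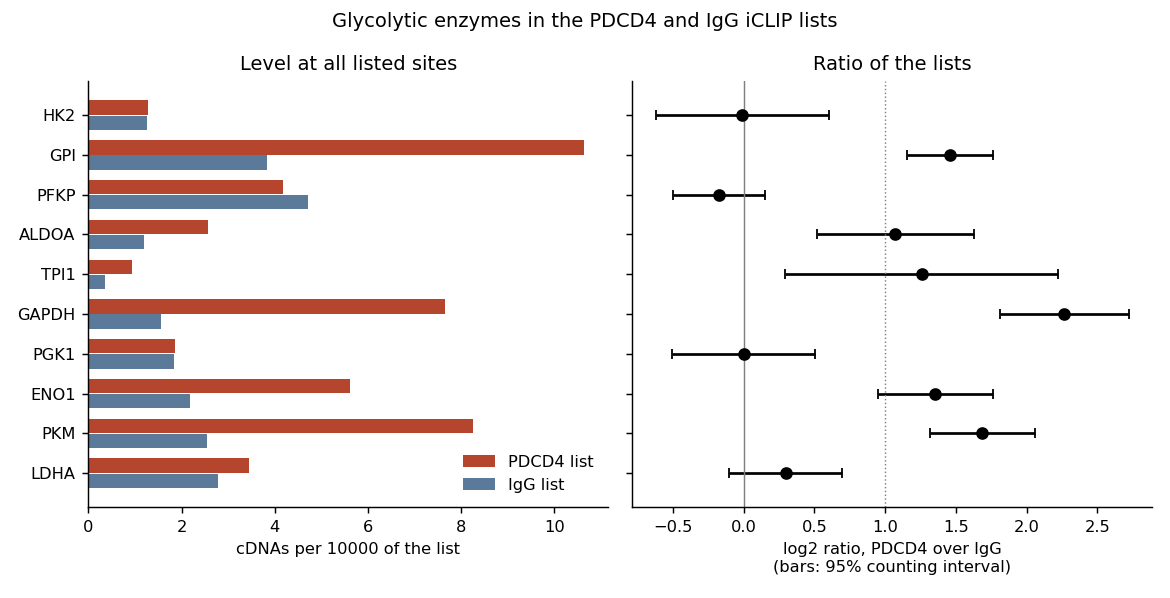
Left, cDNAs per 10000 of the list for each enzyme in pathway order, in the PDCD4 list (red) and the IgG list (blue), 1 pooled list each. Right, the log2 ratio with its 95% counting interval, with lines at 0 and at 1; GAPDH, PKM, GPI, ENO1, TPI1 and ALDOA lie right of the dotted line, and HK2, PFKP, PGK1 and LDHA have intervals that include 0.

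Sites with scores above 5, the limit named in the methods, were more frequent in these genes than in the lists as a whole, a share that also depends on the depth of each list. They made up 36 of the 656 PDCD4 sites of the enzymes, or 5.49%, against 1.48% of the list, and 6 of their 217 IgG sites, or 2.76%, against 0.690%. Of the 10 enzymes, 8 had such a PDCD4 site, where 13.5% of genes with at least 20 cDNAs did. GAPDH held 13 of the 36, ENO1 held 7, PKM 6, ALDOA and GPI 3 each, LDHA 2, and PGK1 and PFKP 1 each. HK2 and TPI1 had none, their highest scores being 4 and 5. The 6 IgG sites comprised 2 in LDHA and 1 each in GAPDH, GPI, HK2 and PFKP. A PDCD4 site above 5 with no IgG site above 5 was found for 4 of 9 enzymes that had either (ENO1, PKM, ALDOA and PGK1), against 60.5% of all such genes, so that the share of the enzymes was not above the background. Of the 36 PDCD4 sites, 2 had an IgG site of any score within 10 nt, both in LDHA. The same share over all PDCD4 sites above 5 was not computed. In the windows printed above, the LDHA sites of the lists are 1 nt apart.

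The regions of the genes were examined next, because a high total can stem from mRNA or from pre-mRNA. A position within several kinds of region was counted as coding sequence if it could be, then as 3′UTR, 5′UTR, exon of a non-coding transcript or intron. Of the PDCD4 cDNAs of the enzymes, 42.7% (40.5 to 44.9) lay in coding sequence, 18.3% in 3′UTRs, 3.11% in 5′UTRs and 31.0% in introns. Of their IgG cDNAs, 26.8% (23.5 to 30.5) lay in coding sequence and 42.3% in introns. The other protein-coding genes had 22.9% of PDCD4 and 10.6% of IgG cDNAs in coding sequence, and 49.0% and 66.4% in introns. Coding sequence took 54.3% (51.7 to 56.8) of the PDCD4 cDNAs without GPI and 34.2% without GAPDH. Above a score of 5 it took 77.5% (72.2 to 82.1) for the enzymes and 46.1% for other genes. The coding share depended on the order, since it was 24.5% when 3′UTRs of any transcript were given priority.

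**Figure D2:**
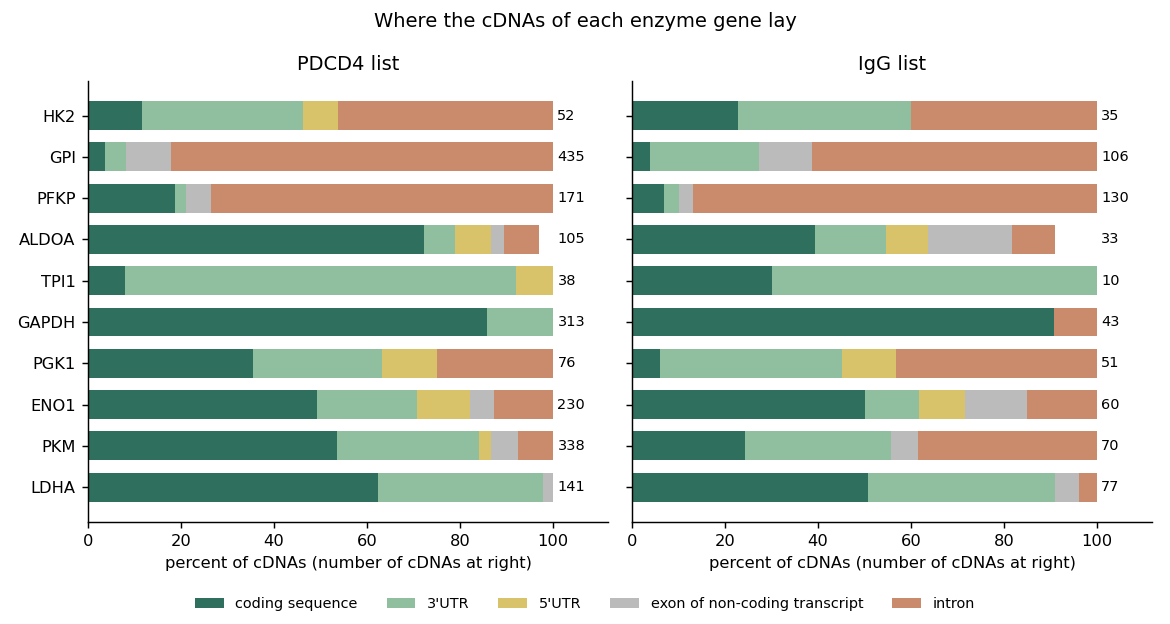
Share of each enzyme's cDNAs by region in the PDCD4 list (left) and the IgG list (right), with the number of cDNAs at the right of each bar. GPI and PFKP are mostly intronic in both lists and GAPDH is mostly coding; the white end of the ALDOA bars is 3 cDNAs per list outside its annotated exons and introns.

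Exonic cDNAs can stem from mature mRNA or from pre-mRNA, and per kb of mRNA they gave another order than the totals. GAPDH had the highest exonic level in the PDCD4 list, at 5.95 cDNAs per 10000 per kb (exact Poisson interval 5.31 to 6.65). PKM followed at 3.11 (2.76 to 3.48) and ENO1 at 2.59 (2.24 to 2.99), and these neighbours overlapped in their intervals. LDHA at 1.50 (1.26 to 1.78) and ALDOA at 1.36 (1.09 to 1.66) overlapped each other too, and lay below ENO1. TPI1 stood at 0.687 (0.486 to 0.943), apart from both sides. PFKP at 0.335, PGK1 at 0.289, GPI at 0.207 and HK2 at 0.122 closed the order, each overlapping its neighbour. GPI, first by total, was thus the ninth of the 10 by exonic level per kb. In the IgG list LDHA (1.13) and GAPDH (1.10) were the highest, followed by ENO1 at 0.874 and PKM at 0.613.

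Exonic log2 ratios exceeded 1 for 5 of the 10, namely GAPDH (2.40, 1.93 to 2.88), PKM (2.31, 1.83 to 2.79), ENO1 (1.54), ALDOA (1.50) and TPI1 (1.26), against 34.1% of 3567 genes. The medians were 1.05 for the enzymes and 0.53 for all genes tested. Within coding sequence, 7 of 8 enzymes with at least 20 cDNAs passed the limit, against 54% of 1399 genes, and the medians were 1.60 and 1.13. The exception was LDHA, at 0.59 (0.05 to 1.12), a value that depended on the order of regions. Some LDHA sites counted as coding lie in the 3′UTR of its canonical transcript, among them a PDCD4 site of score 6 and an IgG site of score 7. Within the coding sequence of that transcript, cut into 3 equal stretches, LDHA had 25, 10 and 32 PDCD4 cDNAs against 3, 3 and 10. The ratio over that coding sequence was not computed. In 3′UTRs, 4 of 8 enzymes passed it (GAPDH, PKM, ENO1 and TPI1), against 23.6% of 1816 genes, with medians of 0.79 and 0.19. PGK1, level with IgG over the whole gene, had 27 coding cDNAs against 3 (2.24, 0.73 to 3.75) but 21 against 20 in its 3′UTR (-0.50, -1.36 to 0.36). Intronic ratios exceeded 1 for GPI and ENO1 among 6 enzymes with enough cDNAs, against 9.13% of 4666 genes, and the interval of ENO1 reached -0.02.

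**Figure D3:**
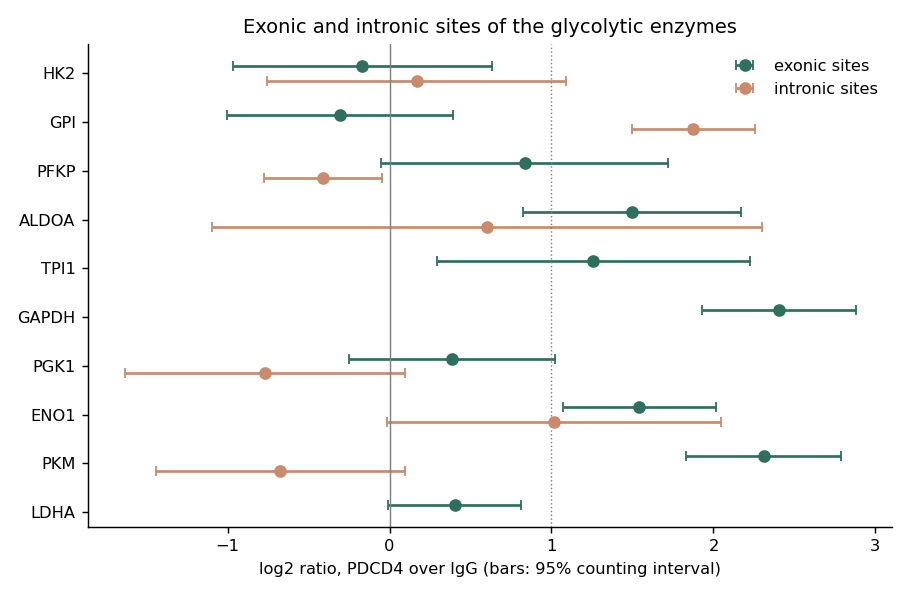
Log2 ratio of PDCD4 over IgG for exonic sites (green) and intronic sites (brown) of each enzyme, with 95% counting intervals and lines at 0 and at 1; a missing point means that at least 1 list was at 0. GPI is the only enzyme whose intronic ratio lies above 1 with its whole interval while its exonic ratio does not.

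Most of the excess of GPI with PDCD4 lay in introns. Introns held 125 of its 153 PDCD4 sites and 358 of 435 cDNAs, or 82.3% (78.4 to 85.6), compared with 65 of 106 IgG cDNAs, or 61.3% (51.8 to 70.0). The intronic log2 ratio was 1.88 (1.50 to 2.25). Among the 4666 genes with at least 20 intronic cDNAs, 143 had a higher ratio. Among the 800 genes with at least 100, GPI was the 14th highest. Exonic sites had 35 PDCD4 and 29 IgG cDNAs and a ratio of -0.30 (-1.0 to 0.39), and the 3′UTR had 19 against 25 (-0.95, -1.79 to -0.11). Its coding sequence had 16 against 4 (1.20, -0.24 to 2.64) and exons of its non-coding transcripts 42 against 12 (1.16, 0.26 to 2.05). All 19 PDCD4 cDNAs and 11 of the 25 IgG cDNAs of the 3′UTR carried a joint label with a second locus, RP11-618P17.4.

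Intron 9 of GPI (chr19:34381520-34393247, 11728 nt, 53.1% G+C) alone held 116 PDCD4 sites and 332 cDNAs, 76.3% of the gene, against 25 IgG sites and 61 cDNAs. Its ratio was 1.86 (1.47 to 2.25). The sites were spread: each of its 11 full kb held between 13 and 70 PDCD4 cDNAs with a median of 25, and the median distance between neighbours was 61 nt. The highest site, printed above, had 13 cDNAs, 3.92% of the intron. IgG cDNAs reached 9 of the 11 kb with at most 11 in any. Sites of repeated sequence were 12 of the 116, and without them the ratio was 2.06 (1.63 to 2.50). Other transcripts place 7 of the sites in a non-coding exon and 1 in coding sequence, and 310 against 55 cDNAs lay in intron of every transcript (1.91, 1.50 to 2.32). The other introns of GPI had 48 against 10 cDNAs, at 1.59 (0.64 to 2.53).

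PFKP, the other mostly intronic enzyme, differed. Its introns held 126 PDCD4 and 113 IgG cDNAs, at -0.41 (-0.78 to -0.05), and its exons 36 and 13, at 0.83 (-0.05 to 1.72). Intron 16 (chr10:3120045-3129818, 9774 nt, 54.8% G+C), of similar length and base composition to GPI intron 9, held 95 against 62, at 0.04 (-0.42 to 0.50). The interval did not overlap that of GPI intron 9. In intron 2 of PFKP, 12 PDCD4 cDNAs stood against 32 (-1.91, -2.84 to -0.99).

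**Figure D4:**
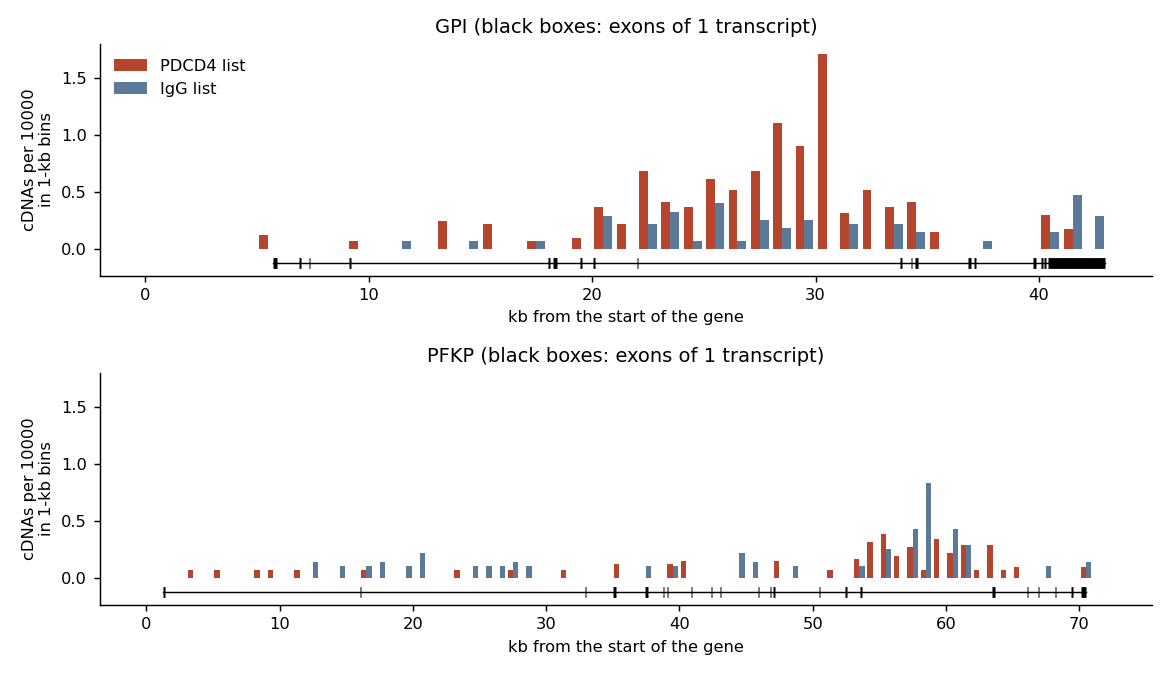
PDCD4 (red) and IgG (blue) cDNAs per 10000 of the list in 1-kb bins along GPI and PFKP, with the exons of a single transcript as black boxes. In GPI the red bars exceed the blue ones in each bin from 22 to 33 kb, where intron 9 lies. In PFKP, red bars stand in each bin from 53 to 63 kb, where intron 16 lies. Blue bars stand in only some of these PFKP bins, and the highest bar is blue.

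GAPDH lay at the other end, with 0 intronic cDNAs of the 313 listed for PDCD4. Counting error alone allows a share of up to 0.958% by the limit of 3 counts, or 1.21% by the Wilson interval. Neither limit covers cDNAs at sites that were not listed. Its coding sequence held 269 PDCD4 cDNAs, or 85.9%, against 39, and its 3′UTR 44 where IgG was listed at 0. Exon 8, the longest, held 157 against 27 (1.93, 1.35 to 2.51), with 38 sites up to a score of 15. In that exon 5 sites above 5 lay within 13 nt (chr12:6537665-6537677), none of them of repeated sequence. Exon 6 had 39 cDNAs and exon 9 had 65, both with IgG listed at 0. Of the 13 sites above 5 in GAPDH, 8 were of repeated sequence.

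PKM had 181 coding cDNAs against 17 (2.77, 2.07 to 3.47) and 103 against 22 in its 3′UTR (1.61, 0.96 to 2.26), while its introns had 25 against 27. Its exon 2 held 46 and its exon 6 held 32, with IgG listed at 0 in both. PKM makes alternative mRNAs that keep either of 2 exons of 167 nt, PKM2 being the form of proliferating cells and PKM1 that of muscle and brain. The exon of PKM2 (chr15:72202454-72202620) held 5 PDCD4 sites with 24 cDNAs and 1 IgG site with 4. The exon of PKM1 (chr15:72203022-72203188) was listed at 0 in both, so that the PKM2 exon took 100% of the 24 listed cDNAs (86.2 to 100%, counting error only). Isoform levels were not measured here.

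ENO1 was covered along its length, with 113 against 30 cDNAs in coding sequence (1.31, 0.74 to 1.88), 50 against 7 in the 3′UTR (2.10, 1.03 to 3.18) and 26 against 6 in the 5′UTR (1.38, 0.18 to 2.58). ALDOA was mostly coding, with 76 against 13 (1.89, 1.07 to 2.71). LDHA differed from both. Its last exon, which holds the 3′UTR, had 81 PDCD4 and 64 IgG cDNAs (-0.23, -0.70 to 0.24). Its 3′UTR had 50 and 31 (0.10), without the 3′UTR sites that the order of regions counted as coding. In TPI1, 32 of 38 PDCD4 cDNAs lay in the 3′UTR, where all 9 sites of repeated sequence were also found. HK2 had 18 and 13 in its 3′UTR and 6 and 8 in coding sequence, and both intervals of the ratio included 0.

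**Figure D5:**
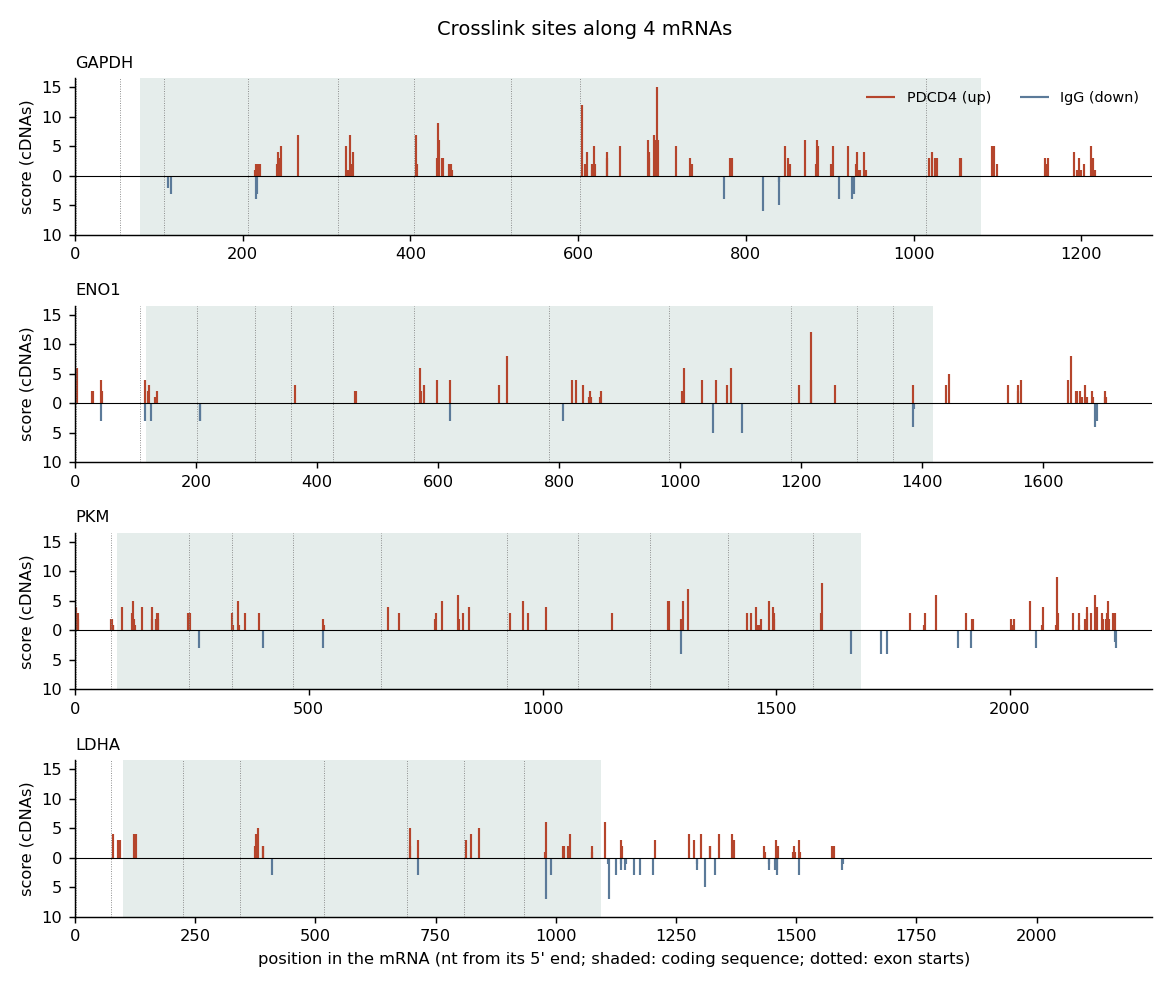
Scores of single crosslink sites along the mRNAs of GAPDH, ENO1, PKM and LDHA, PDCD4 upwards in red and IgG downwards in blue, against the position in nt; coding sequence is shaded and exon starts are dotted. GAPDH rises to 15 and ENO1 to 12 in coding sequence, and in LDHA both lists cluster after the last exon start.

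Within exons, sites of both lists lay towards the 5′ end, in the enzymes and in other protein-coding genes. How reads across exon junctions were mapped is not given in the sources used here, and the cause of this skew was not tested. For internal exons no shorter than 100 nt, 341 PDCD4 cDNAs of the enzymes fell in the first 50 nt and 13 in the last 50 nt, which gave a log2 ratio of 4.61 (3.84 to 5.38). The IgG list showed the same side, with 34 and 4 (2.81, 1.46 to 4.16). Over other protein-coding genes the ratios were 3.57 (3.50 to 3.63) for PDCD4 and 2.99 (2.89 to 3.08) for IgG. GAPDH gave 102 and 7, PKM 64 and 3, ENO1 54 and 3, LDHA 51 and 0, and ALDOA 41 and 0. With windows of 100 nt the ratio of the enzymes was 1.65, from 168 and 53 cDNAs. That setting kept only exons long enough to hold both windows without overlap, so it covers fewer exons. Along the whole coding sequence, cut into 3 stretches of equal length from 5′ to 3′, the enzymes had 236, 269 and 276 PDCD4 cDNAs and 50, 21 and 68 IgG cDNAs.

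Related genes were taken from lists of the pathway and its neighbours. Of 24 other glycolytic isozymes, 9 had a site and 6 had at least 20 cDNAs, of which 1 passed the 2-fold limit upwards and 2 downwards, with a median of -0.27. It was PFKL, the liver isoform of phosphofructokinase, with 145 against 21 (2.16, 1.52 to 2.81). HK1 had 163 against 56 (0.96), LDHB 54 against 31 (0.21) and ADPGK, an ADP-dependent glucokinase, 24 against 35 (-1.09). Of 5 glucose and monocarboxylate transporters tested, 2 were above 1. SLC16A3, the lactate exporter MCT4, had 498 against 93 (1.84, 1.52 to 2.16), more PDCD4 cDNAs than any of the 10 enzymes, and BSG, its chaperone basigin, had 83 against 17 (1.65). The glucose transporter SLC2A1 had 26 against 30 (-0.77), and the lactate transporters SLC16A1 and SLC16A7 had ratios of -0.10 and 0.00.

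Among 7 regulators of glycolytic flux, 2 were above 1 and 1 below -1. MYC, a transcription factor that drives glycolytic genes, had 106 against 8 (3.0, 2.02 to 3.99), and HIF1A, the hypoxia-responsive factor, had 43 against 73 (-1.32, -1.86 to -0.78). PDK1, an inhibitor of pyruvate dehydrogenase, stood at 0.71 and PFKFB3, which makes the activator fructose 2,6-bisphosphate, at 0.11. Of 7 genes of the pentose phosphate pathway 4 were above 1, among them TKT, a transketolase, with 231 against 47 (1.71), while H6PD had 36 against 38 (-0.64). PC, the pyruvate carboxylase of gluconeogenesis, had 132 against 28 (1.63). Pyruvate dehydrogenase and the tricarboxylic acid cycle had 5 of 21 above 1 and 4 below -1, with a median of 0.14. Among its genes with at least 50 cDNAs, the highest was SDHA, a subunit of succinate dehydrogenase, with 49 against 4 (2.75), and the lowest SUCLG2, a subunit of succinyl-CoA ligase, with 60 against 114 (-1.48). FH stood at 1.46, OGDH at 0.70, SUCLA2 at -0.90 and PDHX at -1.38.

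The genes outside the pathway whose values lay nearest to the medians of the enzymes were SFPQ, RPLP2, RPL7A, APLP2 and THBS1, out of 3812 compared by log2 ratio, cDNAs per kb of mRNA, coding share and intron share. SFPQ, a paraspeckle protein, had 218 against 66 cDNAs (1.14), 46.8% of them coding. THBS1, a matrix glycoprotein, had 522 against 138 (1.34), 50.2% coding. The ribosomal protein genes RPL7A and RPLP2 stood at 1.16 and 1.02, and APLP2 at 0.97.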

How the data were processed

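Pooled iCLIP lists of PDCD4 and IgG from MCF10A cells were analysed. The counts deposited by the authors are cDNAs per 1-nt crosslink site, neither normalized nor split by replicate. Per the methods, the authors used iCount with the Ensembl release 88 genome, subtracted IgG sites from the PDCD4 replicates before calling peaks, merged replicates and kept scores above 5. The lists hold scores from 1 upwards, and 721 positions stand in both, so the extent of that subtraction is unclear. Aligner settings and cDNA collapsing are not given in the sources used here.

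Scores were summed per gene of the authors' label, divided by the total of each list and compared as log2 ratios with a pseudocount of 1. Total counts were 409308 (PDCD4) and 276139 (IgG). Ratio intervals (95%) come from the counting error of both sums, shares have Wilson intervals, and levels per kb exact Poisson intervals. All cover counting error only. GENCODE release 44 (GRCh38) gave regions over all transcripts on the site's strand, and its canonical transcripts gave exon numbers. A site was of repeated sequence when its next 30 nt, genomic or spliced, recurred in the genome. Genes needed 20 cDNAs over both lists. The formulas for ratios, shares and their intervals were checked on simulated independent counts. The simulation held no peak calling, IgG subtraction or clustered sites, so it does not cover their effect on these lists. Python 3.11.15, numpy 2.4.6, pandas 2.3.3, scipy 1.17.1, numba 0.67.0 and matplotlib 3.10.9 were used.

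Named genes are the 10 enzymes, genes of the pathway lists with at least 50 cDNAs and the 3 largest or 3 smallest ratios of their list, and the 5 nearest genes. The enzymes and the lists were chosen with earlier results of these data known. CAT and the single introns and exons described were picked with their values in view. Alternatives varied totals, centring, score minimum, pseudocount, site choice, region order, transcripts and windows. Some site sequences are not reported here.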

Additional observations from a re-analysis of the deposited data

How the results depend on the processing

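No paired analysis was possible because each list pools its replicates, and no replicate could be left out for the same reason. At scores above 5 the log2 ratio of GPI was -0.064, from 3 PDCD4 sites and 1 IgG site, and without sites of repeated sequence that of TPI1 was -0.11, both reversed from the values over all sites. Scores above 5 also gave -2.16 (-3.23 to -1.09) for LDHA and -1.96 (-3.47 to -0.45) for PFKP, and scores above 2 gave -0.85 for PGK1, -0.64 for PFKP and -0.86 for HK2. No other enzyme past the 2-fold limit over all sites changed sign. The count of enzymes past that limit lay between 4 and 6 over 12 alternatives, and the median of the enzymes between 0.80 and 1.26. Over the same alternatives, 11.2% to 20.0% of all genes tested passed the limit. The count was 4 with a pseudocount of 5, where 11.2% of genes passed, and at scores above 2, where 17.8% did. Neither the count nor the median of the enzymes was computed at scores above 5 or 10, where IgG was listed at 0 for several enzymes. The log2 ratio of the summed cDNAs was 0.91 at scores above 2, 0.79 above 5 and 0.90 without GAPDH, a setting added after seeing the data, and 0.93 to 1.15 in 12 others. The coding share, 42.7%, was 37.8% by number of sites, 77.5% at scores above 5, 75% above 10, 36.9% with introns given priority, 24.5% with 3′UTRs given priority, 54.3% without GPI, 37.5% without sites of repeated sequence and 34.2% without GAPDH (also added after seeing the data). The exon-end ratio was 3.25 at scores above 5, 1.65 with windows of 100 nt, which leave out the shorter exons, and 4.10 to 5.23 in 5 others. The cause of these shifts was not tested. At scores above 2 the ratio of GPI intron 9 was 2.40 and that of PFKP intron 16 was -0.46, a check added after seeing the data. Depth limits HK2 and TPI1 most, with 87 and 48 cDNAs over both lists.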

Other observations

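Intronic excess with PDCD4 was also found in other genes of the pathway lists. PFKL had 97 intronic cDNAs with PDCD4 and 18 with IgG, at a log2 ratio of 1.80. PC had 110 against 26 (1.47), and SLC16A3 had 187 against 31 (1.99). TKT had 93 against 31 (0.99), close to the 2-fold limit, and its exonic ratio of 2.72 was higher. In HK1 the exonic ratio was likewise the higher, at 2.12 from 102 against 15 cDNAs, and the intronic ratio was -0.05 from 59 against 41. Intronic cDNAs were fewer with PDCD4 in SUCLG2, with 44 against 107 (-1.83), in ADPGK, with 9 against 26 (-2.0), and in PDHX, with 6 against 29 (-2.67).

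Base composition differed along with the intronic ratio. Over the 4666 genes with at least 20 intronic cDNAs, the 426 with a ratio above 1 had a median G+C content of 52.5% and a median length of 35.9 kb, and the other 4240 had 42.0% and 87.9 kb. Spearman's rho between G+C content and intronic ratio was 0.46 across these genes, which are not independent replicates and share the same 2 lists. The G+C content of GPI was 52.4%, above that of 83.8% of these genes. The part of base composition in the result for GPI was not tested.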
